A study of Drosophila melanogaster with 44 samples.

Results

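The genes described here encode the machinery that adjusts the output of whole chromosomes in Drosophila melanogaster. They were followed in adult females that lacked 1 copy of 1 or 2 autosomal segments. The list holds 8 genes: msl-1, msl-3, mle, mof, roX1, roX2, Clamp and Pof. Members were found as the probe sets annotated to these names among the 11889 genes of the Affymetrix array that could be placed on a chromosome arm. Of the 8 genes, 6 had an annotated probe set, and these 6 were also among the 7485 genes with a mean log2 expression of at least 6 that entered the tests. No probe set in the table carried the names of the noncoding RNAs roX1 and roX2, and they were not analysed here.

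In male flies the MSL complex binds the single X chromosome and raises its transcription to match that of the female pair. MSL1 is the scaffold, MSL2 the male-specific subunit on which assembly depends, MSL3 a chromodomain protein, MLE an RNA helicase that remodels the roX RNAs, and MOF the histone acetyltransferase. In females the RNA-binding protein Sex-lethal blocks translation of msl-2, so the complex does not form, although the other subunits are expressed and MOF also acts in the NSL complex in either sex. CLAMP is a zinc finger protein that binds GA-rich sequence and helps bring the complex to the X. POF coats chromosome 4 and is the other chromosome-wide system of the fly.

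Each of the 44 arrays measured RNA from 15 females aged 0 to 24 h and raised at 25 °C. The deletion flies were heterozygous for 1 of 7 deletions, Df(2L)ED4559, Df(2L)ED3, Df(2R)ED1612, Df(2R)ED1770 and Df(3R)ED10953 with 3 arrays each and Df(3R)ED5071 and Df(3R)ED7665 with 2 each (19 arrays), or for a pair of them, with 1 array for each of 19 combinations. The control was wild type, with 6 arrays, and the labels name no strain for any group. The deletions are called by their ED numbers.

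Values are log2 expression per probe set, with array medians from 5.50 to 5.73, so that mof and msl-3 lay only a little above the middle of the arrays. Array numbers in the labels gave wild type the numbers 1 to 6 and every deletion array a number of 7 or more. Array order and deletion therefore cannot be told apart in any comparison with wild type. The third arrays of the deletions with 3 replicates and every array with ED5071 or ED7665, single or double, were numbered from 27, and the remaining deletion arrays up to 26. The female label fitted the marker genes: 14 of 15 testis entries and 10 of 11 male accessory gland genes had means under 6. The remaining testis entry, don, was matched through a synonym to the gene svp and does not count as a testis gene. The yolk protein gene Yp1 lay between 13.34 and 14.18. Since whole flies were used, fewer cells of a type and less RNA per cell cannot be told apart.

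Of the 6 measured genes, none lay inside a deleted segment. On arm 2L, msl-1 and Clamp were separated from the nearer deletion, ED3, by 235 and 546 measured genes. On arm 2R, mle lay 24 measured genes from the first gene of the ED1612 segment, bin3, and Pof lay 1910 measured genes from ED1770. The genes msl-3 on 3L and mof on the X were on arms without a deletion. Every carrier therefore had the full number of copies of all 6 genes as far as the segments could be mapped from expression.

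In the comparison of the mean of the 7 single deletions with wild type, 0 of the 6 genes passed limma's test at an adjusted p of 0.05, where 1.28% of 7193 genes passed. In an F test for differences among the 7 deletions, 0 of 6 passed as well (0.0973% of all genes), and each had an adjusted p of 1. In the comparison of double with single deletions 0 of 6 passed (0% of all genes), each with an adjusted p of 0.9999. Without adjustment, p was under 0.05 for 21% of all genes against wild type, 4.12% among the deletions and 3.59% for doubles against singles. Among the 6 genes only msl-3 and mle reached that level, both against wild type. The germline list, taken as a measure of ovary content, was then added as a covariate. With it, 3 of 6 passed against wild type: msl-3 at 0.47 (limma adjusted p = 0.0468), mle at 0.15 (0.0483) and Pof at -0.27 (0.0468). That fit called 1526 of all genes, against 92 without the covariate. The 6 genes had a median difference from wild type of 0.07, and all tested genes one of -0.0028.

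The scaffold gene msl-1 (probe set 1639438_at) stood at 6.50, 6.64 and 7.33 in replicates 1 to 3 of ED4559, at 6.63, 6.66 and 7.41 in ED3, at 6.42, 6.62 and 7.11 in ED1612 and at 6.43, 6.66 and 7.47 in ED1770. On the third chromosome it stood at 7.26 and 7.33 in ED5071, at 7.07 and 7.39 in ED7665 and at 6.51, 6.81 and 7.64 in ED10953. The doubles ranged from 6.24 to 7.27 with a median of 6.86, and wild type from 6.46 to 7.15 with a median of 6.62. In each deletion with 3 arrays the high value was that of replicate 3. Both ED5071 arrays lay above the highest wild-type array, and the other deletions overlapped wild type, whose high arrays were replicates 4 and 5 with 7.06 and 7.15. The mean of the deletions lay 0.23 ± 0.18 (SE) above wild type (95% interval -0.15 to 0.61, limma adjusted p = 0.4875). The difference turned to -0.19 with the array number group as a block (adjusted p = 0.3616) and to -0.15 in single-deletion arrays numbered up to 26 (adjusted p = 0.5266), and was 0.41 without wild-type replicates 4 and 5 (adjusted p = 0.1956). By genotype mean, ED5071 was highest at 7.29 ± 0.05 (SD, n = 2) and ED1612 lowest at 6.72 ± 0.35 (SD, n = 3).

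The chromodomain gene msl-3 is represented by a pair of probe sets, and the brighter one (1630477_at) was used. It read 6.13, 6.36 and 7.38 in ED4559, 5.76, 5.74 and 6.96 in ED3, 5.93, 5.88 and 6.45 in ED1612, and 5.49, 5.50 and 6.90 in ED1770. In ED5071 it read 7.0 and 6.86, in ED7665 6.43 and 6.45, and in ED10953 5.71, 5.80 and 7.04. The doubles spanned 5.43 to 7.38 (median 6.43) and wild type 5.38 to 6.14 (median 5.79). Arrays numbered from 27 held every value of 6.43 or more, among them those of ED5071 and ED7665, which lay above all wild-type arrays. The deletions averaged 0.58 ± 0.24 (SE) above wild type (limma adjusted p = 0.1712). With the array number group as a block the difference was 0.0001 (adjusted p = 0.9997), and in the single-deletion arrays numbered up to 26 it was 0.07 (adjusted p = 0.7186).

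The helicase gene mle (1629507_a_at) varied least of the 6 over the 44 arrays (SD 0.15). Its values were 7.46, 7.53 and 7.63 in ED4559, 7.37, 7.41 and 7.57 in ED3, 7.43, 7.38 and 7.18 in ED1612, and 7.23, 7.28 and 7.34 in ED1770. They were 7.52 and 7.41 in ED5071, 7.31 and 7.35 in ED7665, and 7.48, 7.31 and 7.44 in ED10953. The doubles covered 7.09 to 7.79 (median 7.37), and wild type 7.09 to 7.36 (median 7.30). Every array of ED4559, ED3 and ED5071 lay above the highest wild-type array, in ED3 by a narrow margin (7.37 against 7.36). The other deletions overlapped wild type. How many of all tested genes part from wild type in this way was not counted, here or for msl-1 and msl-3. The mean of the deletions lay 0.15 ± 0.06 (SE) above wild type (limma adjusted p = 0.1497).

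The acetyltransferase gene mof (1633429_at) was at 5.83, 5.89 and 6.11 in ED4559, 6.14, 6.13 and 6.34 in ED3, 5.84, 6.14 and 6.14 in ED1612, and 6.02, 6.08 and 6.46 in ED1770. It was at 6.14 and 6.33 in ED5071, 6.22 and 6.51 in ED7665, and 5.85, 5.87 and 6.53 in ED10953. The doubles lay between 5.81 and 6.76 (median 6.26), and wild type between 5.93 and 7.07 (median 6.06). The wild-type arrays did not form 1 group: replicates 4 and 5 were at 7.07 and 6.58, and the other 4 between 5.93 and 6.17. The deletions averaged -0.13 ± 0.15 (SE) relative to wild type (adjusted p = 0.6594, limma).

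Clamp (1629663_at), the gene of the zinc finger protein, measured 8.70, 8.51 and 9.08 in ED4559, 8.59, 8.54 and 9.12 in ED3, 8.63, 8.46 and 9.06 in ED1612, and 8.65, 8.46 and 9.0 in ED1770. It measured 9.03 and 8.95 in ED5071, 8.90 and 8.98 in ED7665, and 8.48, 8.49 and 9.21 in ED10953. The doubles ran from 8.43 to 9.32 (median 8.85), and wild type from 8.56 to 9.22 (median 8.74). The groups overlapped over nearly their whole range, and the difference was -0.01 ± 0.13 (SE, 95% interval -0.28 to 0.26, limma adjusted p = 0.9717). With the array number group as a block it was -0.29 (adjusted p = 0.2072), in single-deletion arrays up to 26 it was -0.26 (adjusted p = 0.4482), and without wild-type replicates 4 and 5 it was 0.12 (adjusted p = 0.5769).

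Pof (1631460_s_at, a probe set type that can match several transcripts), whose product coats chromosome 4, had values of 6.90, 6.85 and 7.27 in ED4559, 6.98, 7.0 and 7.51 in ED3, 7.08, 7.02 and 7.26 in ED1612, and 7.14, 7.17 and 7.66 in ED1770. The values were 7.21 and 7.40 in ED5071, 7.22 and 7.36 in ED7665, and 6.93, 6.87 and 7.74 in ED10953. The doubles extended from 6.75 to 7.96 (median 7.22), and wild type from 6.92 to 8.44 (median 7.17). Wild-type replicates 4 and 5 were at 8.44 and 7.59, and the other 4 wild-type arrays between 6.92 and 7.24. The deletions averaged -0.18 ± 0.18 (SE) relative to wild type (adjusted p = 0.5902, limma). Without wild-type replicates 4 and 5 the difference was 0.14 (adjusted p = 0.4991), and that of mof was 0.15 (adjusted p = 0.3746), so both turned. With the array number group as a block the differences were -0.44 for Pof (adjusted p = 0.2877) and -0.30 for mof (adjusted p = 0.3252).

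**Figure D1:**
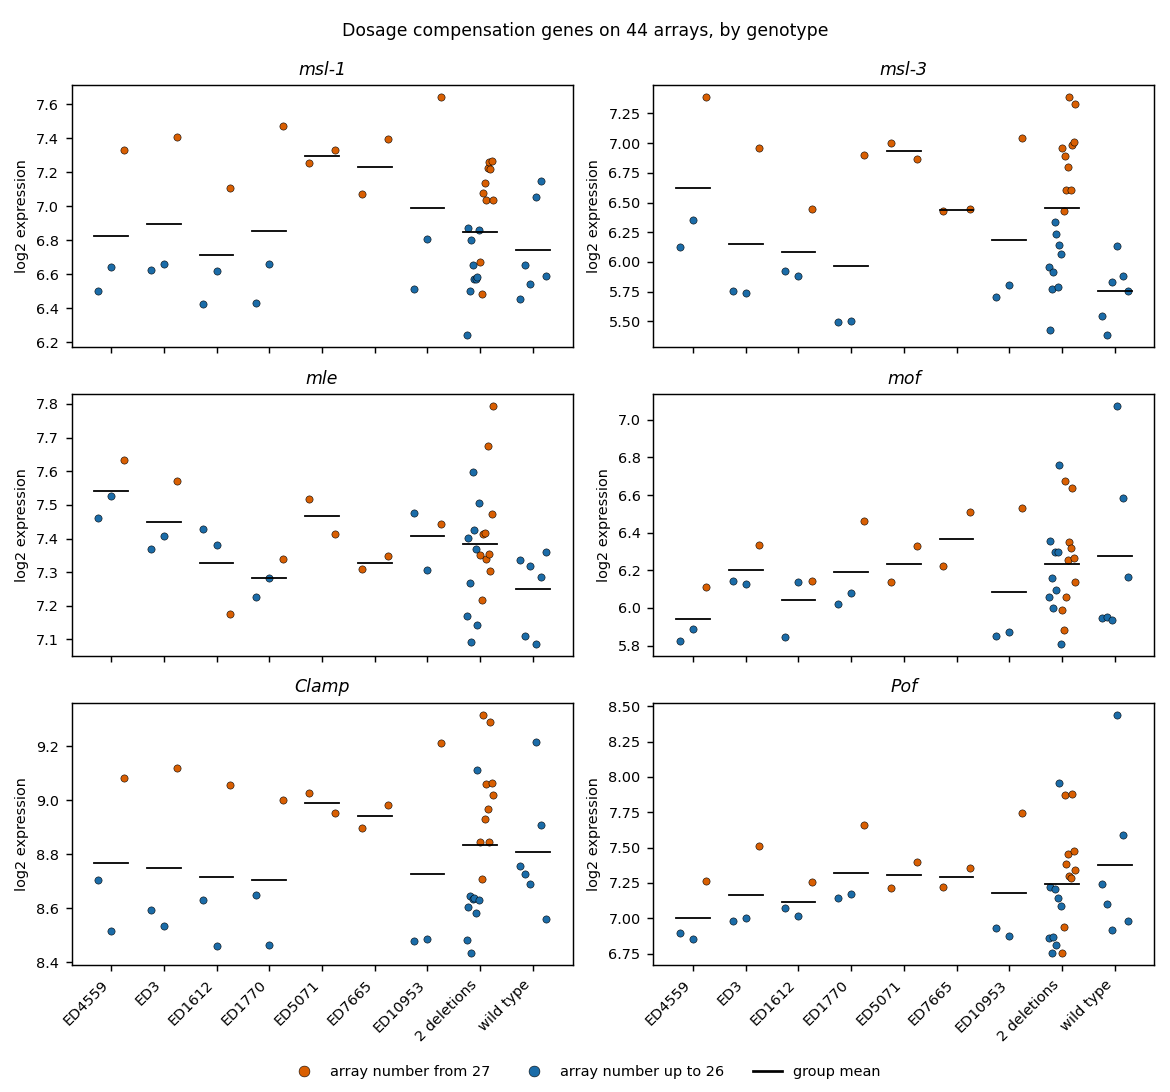
Log2 expression (vertical axes) of the 6 dosage compensation genes on each of 44 arrays, by genotype (horizontal axis). Points are arrays, orange where the array number is 27 or more and blue where it is up to 26, and lines are group means; in msl-3 the orange points of every genotype lie above all blue points, at 6.43 or more.

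The order of the 8 group means (7 deletions and wild type) was not resolved for any of the 6 genes. In each gene, 0 of 7 steps between neighbouring groups exceeded the larger SD of the pair. ED5071 was highest for msl-1, msl-3 and Clamp, ED4559 for mle, ED7665 for mof and wild type for Pof. Wild type was lowest for msl-3 and mle, ED4559 for mof and Pof, ED1612 for msl-1 and ED1770 for Clamp. All arrays of ED5071 and ED7665 were numbered from 27, so deletion and array number cannot be told apart in their high places.

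Array number set apart the values of several of these genes. In a fit with a term for each deletion, arrays numbered from 27 lay above those up to 26 by 1.11 ± 0.11 (SE) for msl-3, by 0.74 ± 0.10 for msl-1, by 0.44 ± 0.08 for Clamp and by 0.35 ± 0.15 for Pof. The term was 0.18 ± 0.13 for mof and 0.11 ± 0.07 for mle, and its median over all tested genes was 0.06. Every array with ED5071 or ED7665 was numbered from 27, and these deletions have terms of their own. The array number term therefore rests on the third replicates of the other deletions. The germline list also moved with array number. With it as a covariate the terms were 0.97 for msl-3, 0.44 for msl-1, 0.27 for Clamp and 0.14 for mle. Those of Pof and mof turned to -0.04 and -0.16. These terms are given as a description, since what the numbers stand for is not given in the sources used here. For msl-3 the groups did not overlap, with 6.43 to 7.38 in the 19 arrays from 27 and 5.38 to 6.36 in the 25 arrays up to 26. The same held, in the same direction, for 0.187% of the 7485 tested genes.

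The deletions with 3 arrays show the split within a genotype. Replicate 3 lay above replicates 1 and 2 in 5 of 5 deletions for msl-1, msl-3, mof, Clamp and Pof, as it did for 19.3% of tested genes, and in 3 of 5 for mle. The gap between replicate 3 and the mean of the other replicates averaged 1.12 for msl-3 (range 0.54 to 1.40), 0.81 for msl-1, 0.54 for Clamp, 0.50 for Pof and 0.34 for mof. For mle it averaged 0.05, from -0.23 in ED1612 upward. The mean of the germline gene list moved the same way, with replicate 3 above the others in 5 of 5 deletions, by 0.37 to 1.22 over their mean. For the chorion gene Cp15, replicate 3 was above both others in 2 of 5. Whether ovary content or another shift with array number moved the list was not tested.

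Carriers of each deletion were compared with non-carriers over all 44 arrays in an additive fit that held a term for each deletion and a block for array number. Of the 42 tests (6 genes, 7 deletions), 1 passed: msl-3 in ED4559 carriers. The share of all tested genes that passed was 1.63% for ED4559, 1.13% for ED3, 0.484% for ED1612, 0.795% for ED1770, 2.23% for ED5071, 0.269% for ED7665 and 7.57% for ED10953. For ED4559, 0.497% of genes passed with higher values in carriers.

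Among ED4559 carriers msl-3 stood at 6.13, 6.36 and 7.38 in the single deletion. In the doubles it stood at 5.96 with ED10953, 5.92 with ED1770, 6.33 with ED1612, 6.24 with ED3, 6.96 with ED5071 and 7.38 with ED7665. In arrays numbered from 27, the 3 carriers ranged from 6.96 to 7.38 and the 16 non-carriers from 6.43 to 7.32. In arrays up to 26, the 6 carriers ranged from 5.92 to 6.36 and the 19 non-carriers from 5.38 to 6.14. Carriers thus lay in the upper part of each set and overlapped the non-carriers in both. The fitted difference was 0.42 ± 0.09 (SE, 95% interval 0.24 to 0.61), a 1.34-fold rise, with a limma adjusted p of 0.00734. The gene lies on arm 3L, away from the deletion on 2L.

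The call rests on 1 of the msl-3 probe sets and on the joint fit. The other probe set, 1627738_a_at, read 5.98 to 6.57 in the 9 carriers (median 6.18) and 5.73 to 6.79 in the 35 non-carriers (median 6.07), and its difference was 0.08 (adjusted p = 0.6325). Across arrays numbered from 27 the probe sets correlated with r = 0.370 (19 arrays), and across those up to 26 with r = 0.553 (25 arrays). For the mean of both probe sets the difference was 0.25 (adjusted p = 0.0891). The difference of the brighter probe set was 0.54 within arrays from 27 (adjusted p = 0.330) and 0.40 within arrays up to 26 (adjusted p = 0.194). Leaving out any 1 replicated array kept it between 0.40 and 0.45, with adjusted p from 0.00229 to 0.0258. The germline list had a median of 8.31 in carriers and 8.52 in non-carriers, and adding it as a covariate gave a difference of 0.45 (adjusted p = 0.000823).

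**Figure D2:**
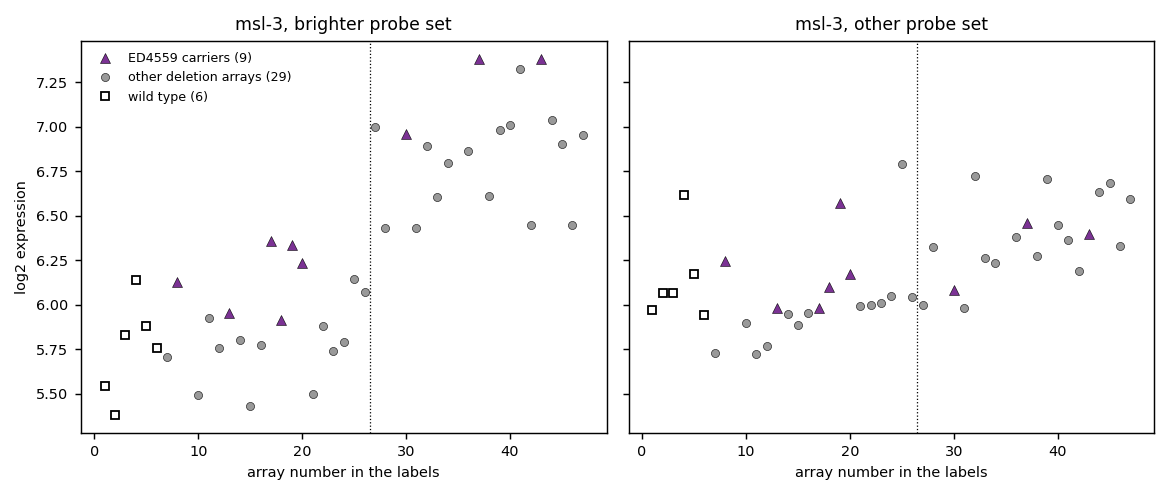
Log2 expression of the brighter (left) and the other (right) msl-3 probe set against the array number in the labels. Triangles are the 9 ED4559 carriers, grey circles the 29 other deletion arrays and open squares the 6 wild-type arrays; the dotted line parts numbers up to 26 from those from 27, where the brighter probe set steps to 6.43 or more.

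For the other genes the carrier terms of the additive fit did not pass, and their intervals hold under that fit alone. The msl-1 term in ED5071 was -0.42 ± 0.13 (SE, 95% interval -0.67 to -0.16, adjusted p = 0.0714). Its carriers were all numbered from 27 and read 7.26 and 7.33 in the single deletion, 7.08 with ED1770, 7.14 with ED1612, 7.04 with ED3, 6.67 with ED4559 and 6.49 with ED10953, against 7.04 to 7.64 in the non-carriers numbered from 27. The low carriers, with ED4559 and ED10953, also had the lowest germline list values of that set, 8.12 and 7.91. With germline content as a covariate the msl-1 term was -0.30 and passed (adjusted p = 0.00969). That fit called 716 of 7434 genes, against 166 without the covariate. The msl-1 term also passed without ED5071 replicate 2 (-0.46, adjusted p = 0.0413) and without ED1612 replicate 3 (-0.51, adjusted p = 0.0302). Fits with 1 array left out called 79 to 247 of all genes. Over the alternatives other than leaving out 1 array, the term ran from -0.46 to 0.20, so its direction depended on the fit. By group mean, with no block, ED5071 was the highest group for msl-1 at 7.29.

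The Pof term in ED4559 carriers was -0.31 ± 0.12 (SE, adjusted p = 0.167), with 6.75 to 7.30 in carriers (median 6.87) and 6.76 to 8.44 in non-carriers (median 7.22). It was -0.18 without wild-type replicates 4 and 5 (adjusted p = 0.299) and -0.16 without the 7 arrays with a Cp15 value of at least 12 (adjusted p = 0.152), an alternative chosen after seeing the data. The msl-3 term in ED3 was 0.19 ± 0.09 (SE, adjusted p = 0.307). In ED1770 carriers the terms of Pof and mof were 0.20 ± 0.13 and 0.19 ± 0.11 (SE, adjusted p = 0.508 and 0.4835). Both passed without wild-type replicates 4 and 5, at 0.34 for Pof (adjusted p = 0.00970) and 0.30 for mof (adjusted p = 0.0129). That fit called 1538 of 7425 genes, against 59 with those arrays. The terms of mle lay between -0.10 and 0.10 over the 7 deletions and those of Clamp between -0.14 and 0.03, and none passed. In ED1612 carriers, whose deletion lies nearest to mle, the mle term was 0.08 ± 0.05 (SE, 95% interval -0.03 to 0.19, adjusted p = 0.747).

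**Figure D3:**
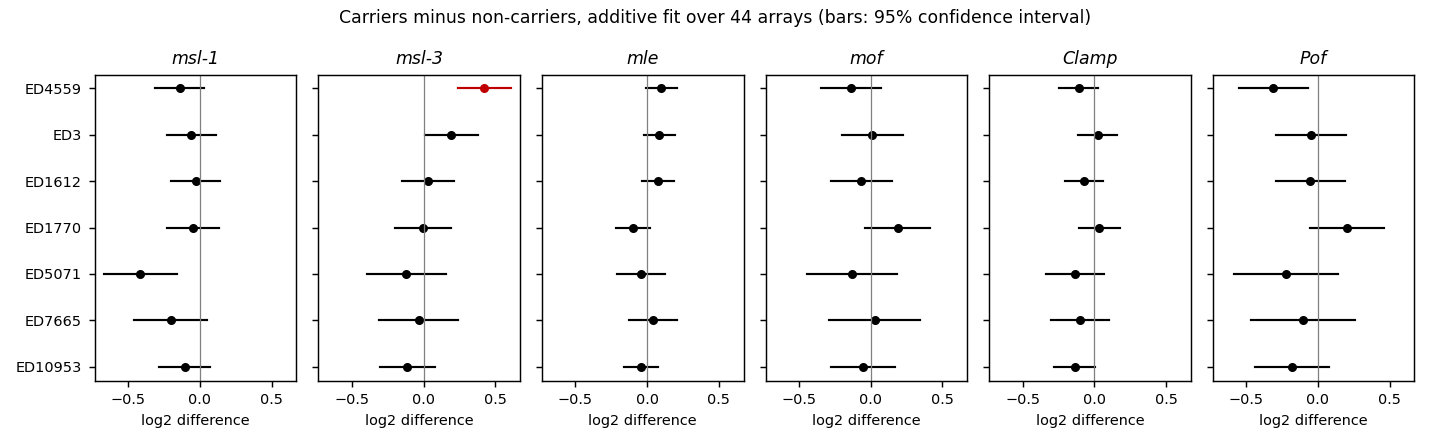
Carrier minus non-carrier log2 difference (horizontal axes) of each gene for each of the 7 deletions, from the additive fit over 44 arrays, with 95% confidence intervals. The red point, msl-3 in ED4559 at 0.42, is the one that passed at an adjusted p of 0.05.

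The male-specific subunit gene msl-2 is not on the member list but is the 1 gene of the complex that a deletion removes. It lay inside the ED4559 segment, which ran from Ccdc85 to Pgant4 over 59 measured genes, with 54 measured genes of the segment on one side and 4 on the other. Its mean of 5.32 was under the limit for testing, so it took no part in mapping the segment. The 9 carriers, with 1 copy of msl-2, ranged from 4.48 to 5.21 (median 4.97), and the 35 non-carriers from 4.93 to 5.84 (median 5.43). Only ED3 replicate 2 at 4.93 and wild-type replicate 4 at 4.98, with ED1612 replicate 3 at 5.17, reached into the carriers' range. In a fit without the filter the carriers differed by -0.44 ± 0.07 (SE, 95% interval -0.59 to -0.29), to 73.6% of the non-carriers, with an unadjusted limma p of 7.43e-07. The 39 tested genes of the segment had a median difference of -0.88, to 54.5%. Their lower values in carriers were used to map the segment, so this median is no independent measure. The msl-2 mean lay under the lowest array median, 5.50, so no conclusion is drawn from the gap between the percentages. In the other 6 deletions the 95% interval of msl-2 included 0.

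**Figure D4:**
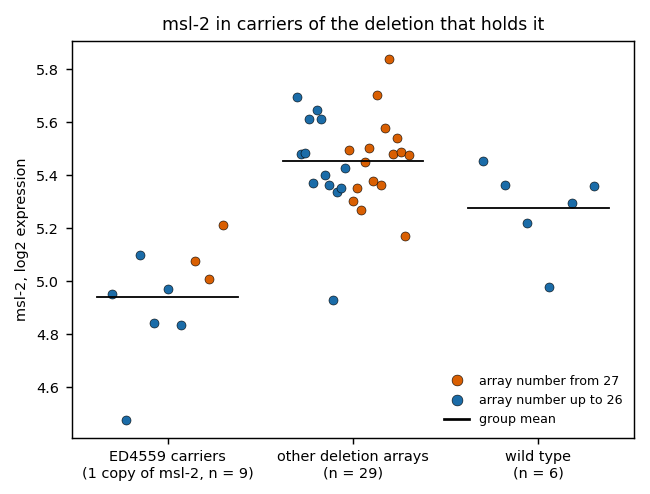
Log2 expression of msl-2 (vertical axis) in the 9 carriers of ED4559, the 29 other deletion arrays and 6 wild-type arrays, with group means as lines and array number by colour. The carriers lie at 4.48 to 5.21, and the other arrays with few exceptions above them.

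Expression of most of these genes followed the germline list across arrays. The share of all tested genes that did so was not computed, so the relation is not shown to be particular to these genes. The list holds ovary genes such as oskar and aubergine, and its mean was taken as a measure of ovary content. For msl-1 Pearson r was 0.876 and Spearman rho 0.853 over 44 arrays, with permutation p = 1e-05 for both (two-sided), the lowest value 100000 resamples allow, or 1.75e-05 adjusted over the 7 relations computed. Clamp gave r = 0.781 and rho = 0.723, Pof r = 0.759 and rho = 0.773, and mof r = 0.733 and rho = 0.702, each with permutation p = 1e-05 (adjusted 1.75e-05). For mle r was 0.070 and rho 0.097 (permutation p = 0.651 and 0.529). Without the 2 arrays farthest from the median of the list, r was 0.887 for msl-1, 0.747 for Clamp, 0.721 for Pof, 0.688 for mof and 0.159 for mle. The msl-3 values fall into separate sets by array number, and r was 0.057 within arrays from 27 (19 arrays, permutation p = 0.815) and 0.313 within those up to 26 (25 arrays, permutation p = 0.129).

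Within the array number groups msl-1 kept the relation, with r = 0.834 from 27 and 0.799 up to 26 (adjusted permutation p = 0.000163 and 7e-05), and r was 0.561 and 0.595 without the 2 farthest arrays of each. For mof r was 0.791 from 27 and 0.731 up to 26, for Pof 0.792 and 0.701, and for Clamp 0.619 and 0.618, all past the threshold after adjustment. In arrays up to 26, Spearman's rho was 0.359 for mof, 0.310 for Pof and 0.225 for Clamp, and without the 2 farthest arrays r was 0.402, 0.296 and 0.187. There the relation of these 3 genes rests on those arrays, which are wild-type replicates 4 and 5. In arrays from 27, r without the 2 farthest was 0.673 for mof, 0.610 for Pof and 0.324 for Clamp.

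**Figure D5:**
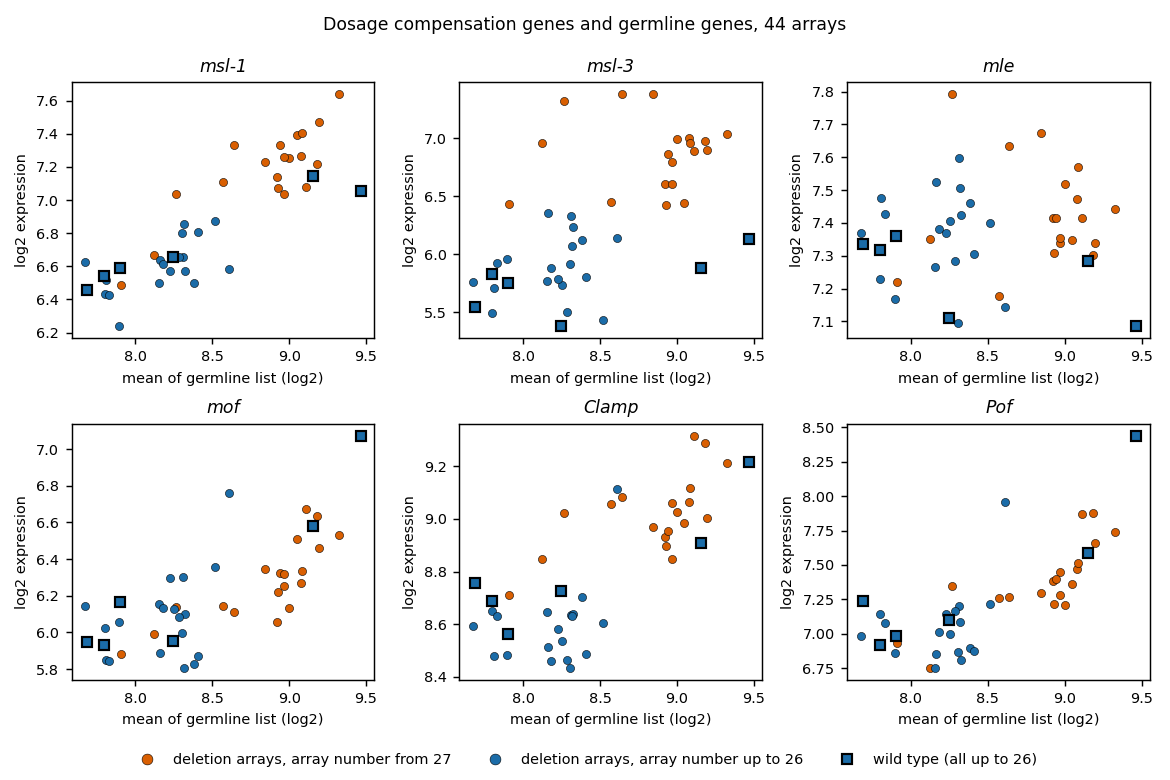
Log2 expression of the 6 genes (vertical axes) against the mean log2 value of the germline list (horizontal axes) on 44 arrays. Circles are deletion arrays, orange from number 27 and blue up to 26, and squares wild type; msl-1 follows the list with r = 0.876, mle does not (r = 0.070), and msl-3 forms separate sets by array number.

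Several arrays with late eggshell expression had high Pof, mof and Clamp. The chorion gene Cp15, made by follicle cells at the end of egg formation, was highest in wild-type replicate 4 at 14.10, followed by the double ED1770 with ED3 at 13.81 and the double ED7665 with ED1770 at 13.61. Those 3 arrays held places 1, 2 and 3 of 44 for Pof, with 8.44, 7.96 and 7.88. For mof they held places 1, 2 and 4, with 7.07, 6.76 and 6.64, and for Clamp places 3, 6 and 2, with 9.22, 9.11 and 9.29. For mle the same arrays held places 44, 41 and 33, and for msl-1 places 17, 33 and 11. Cp15 was 12.83 or more on 7 arrays and at most 8.38 on the other 37. The other 4 high arrays were wild-type replicate 5, the double ED5071 with ED1770, ED10953 replicate 3 and the double ED5071 with ED3. They held places 7, 4, 5 and 10 for Pof, 5, 3, 6 and 17 for mof, and 18, 1, 4 and 9 for Clamp, so that not every high array was among the highest for each gene. The part of egg formation in the values of these genes was not tested.

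Whole-chromosome levels were compared because these proteins act on the X and on chromosome 4. The level of a chromosome is the median of its tested genes minus that of the autosomal arms outside the deletions. Chromosome 4 (51 genes) had a level of 0.31 ± 0.15 (SD, n = 19) in single deletions and 0.14 ± 0.22 (SD, n = 6) in wild type, with an exact two-sided permutation p of 0.0405, or 0.0811 adjusted over both chromosomes. In deletion arrays up to 26 it was 0.26 ± 0.13 (n = 10, exact p = 0.2073), and against the wild-type arrays other than replicates 4 and 5, at 0.28 ± 0.06 (n = 4), exact p was 0.6977. The X (1220 genes) had -0.10 ± 0.04 in single deletions and -0.10 ± 0.07 in wild type (exact permutation p = 0.6991).

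Pof expression was set against the chromosome 4 level array by array. Over 44 arrays r was -0.284 (permutation p = 0.0613, adjusted 0.0715) and rho -0.115 (permutation p = 0.454), and r was -0.155 without the 2 arrays farthest from the median level. With the chromosome 4 level taken over all its genes, with no filter on low values, the relation passed, at r = -0.637 (permutation p = 1e-05) and rho = -0.495 (permutation p = 0.00059), and r was -0.461 without the 2 farthest arrays. Within arrays from 27 r was -0.436 (permutation p = 0.0631), and within arrays up to 26 it was -0.702 (adjusted permutation p = 0.000723), or -0.426 without the 2 farthest. Wild-type replicates 4 and 5, with high Pof, had the lowest levels, -0.17 and -0.11.

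The wider pathway list names 36 partners, of which 28 were measured and 24 tested. In 10 comparisons (single deletions with wild type, among deletions, doubles with singles, and 7 carrier terms) 0 of the 24 passed limma's test. Without adjustment p was under 0.05 in 18 of the 240 tests. The matching share of all genes over the 10 comparisons was not computed. In ED4559 carriers unadjusted p was under 0.05 for 8 of 24, all lower, and for 17.6% of all genes in either direction. The share of all genes that were lower there was not computed. The lowest adjusted p was 0.0541, for Nup153 in ED4559 carriers, a nucleoporin linked to MSL targets in males, at -0.32 ± 0.09 (SE). The chromatin remodelling gene E(bx) followed in ED4559 at -0.27 ± 0.09 (adjusted p = 0.110), and Nurf-38 and Syp had the highest differences there, 0.04 and 0.03. Against wild type the extremes were the remodeller gene Iswi at -0.26 ± 0.16 and the NSL gene dgt1 at -0.21 ± 0.14, and Rm62 at 0.17 ± 0.17 and nsl1 at 0.17 ± 0.10 (SE, adjusted p from 0.321 to 0.596). Doubles minus singles gave -0.16 for Nup153, -0.11 for nsl1, 0.15 for ADD1 and 0.11 for mxc. The 24 genes had a median difference from wild type of -0.06.

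In the remaining carrier terms the extremes were likewise short of the threshold. In ED5071 carriers, Set2, a histone methyltransferase gene whose mark recruits MSL3, was at -0.50 ± 0.18 (SE, adjusted p = 0.137) and Rm62 at -0.26, while Syp was at 0.35 and ADD1 at 0.20. ED1770 carriers had Sxl, the female switch gene, at -0.17 ± 0.07 (SE, adjusted p = 0.308) and tra, its target in sex determination, at -0.10, with mxc at 0.38 and ADD1 at 0.20. In ED3 carriers the gene of heterochromatin protein HP1a was at -0.16 and His2Av at -0.10, with E(bx) at 0.12 and ADD1 at 0.10. ED1612 carriers had Iswi at -0.16, the HP1a gene at -0.15, ADD1 at 0.12 and Chro at 0.08. ED7665 carriers had Unr, a translational co-repressor of msl-2, at -0.25, wde at -0.25, ADD1 at 0.22 and Nurf-38 at 0.14. In ED10953 carriers mxc was at -0.18, E(bx) at -0.16, wds at 0.25 and Syp at 0.13. Sxl averaged 9.19 ± 0.14 (SD, n = 19) in single deletions and 9.04 ± 0.25 (SD, n = 6) in wild type.

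The genes whose profiles were most like each member over the 44 arrays were ranked by Pearson r among all tested genes, as a description. Array number and the germline list differ between the arrays, and both enter these values. For msl-1 they were jumu, rdog and Tif-IA, with r from 0.912 to 0.917. For msl-3 they were bug (0.906), Tsen15 (0.884) and MSBP (0.847). Rif1, the gene of the large subunit of chromatin assembly factor 1 and mus81, all with roles in DNA replication or repair, were nearest to mof, with r from 0.881 to 0.889. Clamp was followed by sax, Hsf and put (0.940 to 0.944), of which sax and put encode receptors of the BMP and activin families and Hsf the heat shock factor. Pof was followed by Odj, CG8180 and CG5199 (0.939 to 0.947). The nearest to mle were Myo95E, swi2 and ex, with r of about 0.70.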

How the data were processed

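The deposited values are log2 expression per probe set from 1 Affymetrix array per sample, made with RMA per the submitters' processing notes (version not stated). The log base is not stated and was taken from the range, 2.58 to 14.66. Of 18952 probe sets, 13647 had 1 gene, 402 several and 4903 none; 13537 were placed by gene identifier on Release 6, used for names and gene order only. The probe set with the highest mean stood for a gene. Deleted segments were mapped as runs of lower neighbouring genes in carriers (offset 0.3, limit 0.7 per gene), and their genes were left out of the adjustment.

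Tests were limma 3.58.1 in R 4.3.3 (moderated, with a trend), with Benjamini-Hochberg adjustment over all tested genes and a threshold of 0.05. Permutation tests used scipy 1.17.1 and numpy 2.4.6 in Python 3.11.15, with pandas 2.3.3 and matplotlib 3.10.9. The limma fits were also run on simulated data with independent genes and no array number shift, so that check does not cover such structure. Labels call replicates biological, and p-values treat arrays as independent. The number of arrays limits the precision.

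Genes named are the members, the 3 nearest profiles of each, and of the pathway list the 2 extremes in each direction per comparison. Members and lists were chosen with earlier results of these data known.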

Additional observations from a re-analysis of the deposited data

Results flagged for a closer look

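The other msl-3 probe set, 1627738_a_at, stood apart in wild-type replicate 4. It read 6.62 there, while the other 5 wild-type arrays lay between 5.94 and 6.17, and the gap is 0.656 of the group's range, above Dixon's value of 0.625 for 6 arrays. Wild type was examined in this way for 8 measures, and chance would single out about 1 in 20. The same array had the highest Cp15, mof and Pof values of all 44 arrays.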

How the results depend on the processing

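Over the alternatives run for the 6 genes, 2221 of 2244 values stayed on the same side of the threshold. Another 12 newly passed, 7 no longer passed and 4 reversed with a pass in either fit. A change of direction between values that did not pass is counted among the 2221. The msl-1 difference from wild type, for example, turned from 0.23 to -0.19 with the array number block. The number of the 6 genes called against wild type was 3 in place of 0 with the germline list as a covariate (msl-3 0.47, mle 0.15, Pof -0.27). It was 2 with a replicate block (msl-1 0.48, msl-3 0.85), a fit that called 1410 of 7193 genes. With that block the F test called 1 of the 6 genes, msl-3, and 181 of all genes. The labels tie no same-numbered arrays together, and the correlation of their deviations ran from -0.73 to 0.85 over 71 pairs (median 0.23), against -0.83 to 0.81 over 197 differently numbered pairs (median -0.09). The numbers were therefore not taken as pairs. Replicate 3 was numbered from 27 in the 5 deletions with 3 arrays, but not in wild type. The msl-3 call in ED4559 was lost (0 called) with the mean of probe sets (0.25), with a mean of at least 7, which leaves msl-3 untested, with a replicate block (0.66), without the array number block (0.39), within arrays up to 26 (0.40) or from 27 (0.54), in wild-type and single-deletion arrays alone (0.50) and with the other msl-3 probe set (0.08), an alternative chosen after seeing the data, as was leaving out arrays with high Cp15. ED1770 had 2 calls without wild-type replicates 4 and 5 (mof, Pof), where 1538 of all genes were called. ED5071 had 1 call with the germline covariate (716 of all genes) and 1 without those wild-type arrays (304 of all genes), msl-1 in both. It had 0 to 1 when single arrays were left out (79 to 247 of all genes). Without the array number block ED5071 had 1 (msl-3 reversed to 0.79), where 894 of 7434 genes were called. ED7665 then had 3 (reversed: msl-1 0.41, msl-3 0.88, Clamp 0.26), where 1403 of 7434 genes were called. The relation of msl-3 with the germline list was 0.313 up to 26 and 0.0574 from 27, and that of Pof with chromosome 4 was -0.70 up to 26 and -0.637 with no filter, where it passed. The cause of these changes was not tested.

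Counts over all genes moved widely. Against wild type 92 genes passed, with 3 to 1526 under the alternatives and 20 (without wild-type replicate 4) to 159 (without ED3 replicate 2) with 1 array left out. The F test gave 7, with up to 181 under the replicate block and 2 to 17 with 1 array left out. Carrier counts, with their range over the alternatives, were 121 for ED4559 (6 to 329), 84 for ED3 (1 to 406), 36 for ED1612 (1 to 157), 59 for ED1770 (3 to 1538), 166 for ED5071 (1 to 894), 20 for ED7665 (1 to 1403) and 565 for ED10953 (20 to 1322). A replicate block could not be fitted for doubles against singles, nor ED5071 and ED7665 in arrays up to 26. The values of msl-2, mof and msl-3 lie near the array medians, and their signal over background was not analysed here.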
